A study of Bos taurus with 20 samples.

Results

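A set of 10 transcripts of bull spermatozoa, known here by their Ensembl gene identifiers, is described across 18 sperm libraries. They are 10 of the 27607 genes in the deposited table, of which 8173 were above 0 in at least 1 of these libraries. They were chosen by a measured value: each was detected, that is, had a value above 0, in more libraries of low fertility bulls than of high fertility bulls. Their higher detection in Low is therefore how they were picked and not a finding, and no test of it is given. What the choice did not use directly is whether they occurred in the same animals within a fertility class, and how they followed the number of genes a library held. The choice did favour how many libraries of each class showed them, which limits what both of these can show. Here the study's samples were frozen-thawed spermatozoa of Holstein-Friesian bulls, 10 classed as High and 10 as Low fertility from a statistical model, each library being 1 bull with semen of 3 ejaculates pooled. The labels name no treatment of the semen beyond freezing and thawing. High replicate 9 and Low replicate 8 carry one and the same profile, gene by gene, so both were set aside, which left 9 High and 9 Low bulls. The value is a normalised signal whose sum per library ran from 562479 to 1395311. In it 1 read was worth 0.0282 to 0.115, depending on the library.

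Spermatozoa leave the testis with compact chromatin and almost no transcription, so the RNA they carry was mostly made earlier, in spermatogonia, spermatocytes and round spermatids. The amount per cell is very small and much of it is broken into pieces. The libraries here were made with a kit meant for single cells or low input. In such material a transcript can be abundant in one library and missing from the next. In a bulk sample, fewer cells carrying a transcript and less RNA per cell cannot be told apart. The table does not pair identifiers with symbols, so no function is given for any of the transcripts, and the label spermatozoa was not checked against marker genes.

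Libraries differed widely in how many genes they showed. Genes detected ran from 708 to 3297 in High and from 879 to 3720 in Low, and read totals from 9426708 to 49451216 reads. All 10 transcripts passed the filter used for the fit over the whole table (9 or more libraries with a value no lower than 1), which 1458 genes met. For 6 of the 10 the number of libraries with a value above 0 was exactly 9, with 7 of these in Low and 2 in High. At the value of 1 that the filter asks for, these 6 were still in exactly 9 libraries. ENSBTAG00000049916, above 0 in 11 libraries, was in exactly 9 at that value too. For all of these the filter itself needed the Low libraries. Low detection exceeded High detection by 5 libraries for 6 transcripts, by 4 for 2 and by 3 for the other 2. Among all 1458 tested genes, 42.7% were detected in more Low than High libraries and 8.92% in at least 3 more, and nothing is read from the comparison with the chosen 10. At the edge of the choice, 92 tested genes had an excess of exactly 3, of which 2 are among the 10. Of the 12 tested genes with an excess of 5 or more, 6 are among them.

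A pair of the transcripts was present in every Low bull. In what follows a class median is taken over all 9 libraries of the class, zeros included. ENSBTAG00000005301 was detected in all 9 Low libraries, at 100.4 to 687 with a median of 253, the highest being Low replicate 1. In High it was detected in 6 of 9 libraries, from 4.69 in replicate 16 to 297 in replicate 10. The class median was 62.5 and that of the 6 libraries 139.9, and it was listed at 0 in replicates 2, 3 and 12. The ranges overlapped, since 3 High libraries (replicates 10, 15 and 17) lay above the lowest Low value. ENSBTAG00000011022 was likewise in all 9 Low libraries, at 75.0 to 847 with a median of 251, and Low replicate 18 stood at the top. Its High values were 0 in replicates 2, 14, 15 and 16 and lay in a narrow band of 115 to 160 in the other 5, whose median was 129, with a class median of 115. High replicate 14, the library with the most reads, thus lacked a transcript that High replicate 12 showed at 129; the former had 3297 genes detected and the latter 1502.

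The other 8 were each found in 7 of 9 Low bulls and in 2 to 4 of 9 High bulls, and the Low bulls that lacked them were the same for a single pair of transcripts. ENSBTAG00000013755 was seen in High only in replicates 10 (25.1) and 14 (9.79). In Low its median was 54.9 and its maximum 679 in replicate 11, and it was at 0 in replicates 7 and 13. Its Low mean of 154 ± 239 (SD, n = 9) dropped to 88.3 without replicate 11. ENSBTAG00000011421 was seen in High in replicates 6 (39.2), 10 (41.7) and 14 (19.3). In Low it reached 443 in replicate 1 and 315 in replicate 20, with a median of 97.2, and was at 0 in replicates 5 and 7. These 2 transcripts shared 8 libraries, 2 of them High.

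ENSBTAG00000046101 and ENSBTAG00000004852 occupied the same 7 Low libraries. Both were at 0 in Low replicates 11 and 20, which held 879 and 1223 detected genes and were the poorest of that group. ENSBTAG00000046101 lay at 59.0 to 219 where seen in Low, with a group median of 104, and in High at 33.3 in replicate 14 and 70.2 in replicate 15. ENSBTAG00000004852 lay at 35.6 to 198 where seen in Low, with a group median of 52.9, and in High at 147 in replicate 6 and 39.5 in replicate 14. They met in a single High library, replicate 14, and so in 8 libraries of the 10 in which either was seen.

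ENSBTAG00000049167 and ENSBTAG00000051207 were both at 0 in Low replicate 11 as well. ENSBTAG00000049167 was also at 0 in Low replicate 19 and ran from 13.7 in replicate 20 to 371 in replicate 5, with a Low median of 55.2. Its Low mean of 101 ± 121 (SD, n = 9) was 67.3 without replicate 5. In High it was seen at 99.0 in replicate 6 and at 7.32 (76 reads) in replicate 15. ENSBTAG00000051207 was also at 0 in Low replicate 7, ran from 41.2 to 285 elsewhere in Low with a group median of 111, and was seen in High at 60.9 in replicate 3 and 90.2 in replicate 14. No High library (0 of 9) held both of these transcripts.

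ENSBTAG00000015450 and ENSBTAG00000049916 were high in Low replicate 11, the Low library with the fewest genes. ENSBTAG00000015450 stood at 251 there and at 335 in Low replicate 13, and had a Low median of 70.8. It was at 0 in Low replicates 1 and 20 and close to it in replicate 7 (1.67, or 23 reads), and in High it was seen at 33.4 in replicate 14 and 93.9 in replicate 17. ENSBTAG00000049916 reached 1118 in Low replicate 11, the highest value of any of the 10 in any library used, against a Low median of 163. Its Low mean of 252 ± 348 (SD, n = 9) was 143 without that library. It was at 0 in Low replicates 4 and 19. In High it was seen at 153 in replicate 14 and 70.8 in replicate 16, and in replicates 3 and 6 at 0.322 and 0.0511, which are 5 reads and 1 read. At a value of at least 1, it was therefore in 2 High and not 4.

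**Figure D1:**
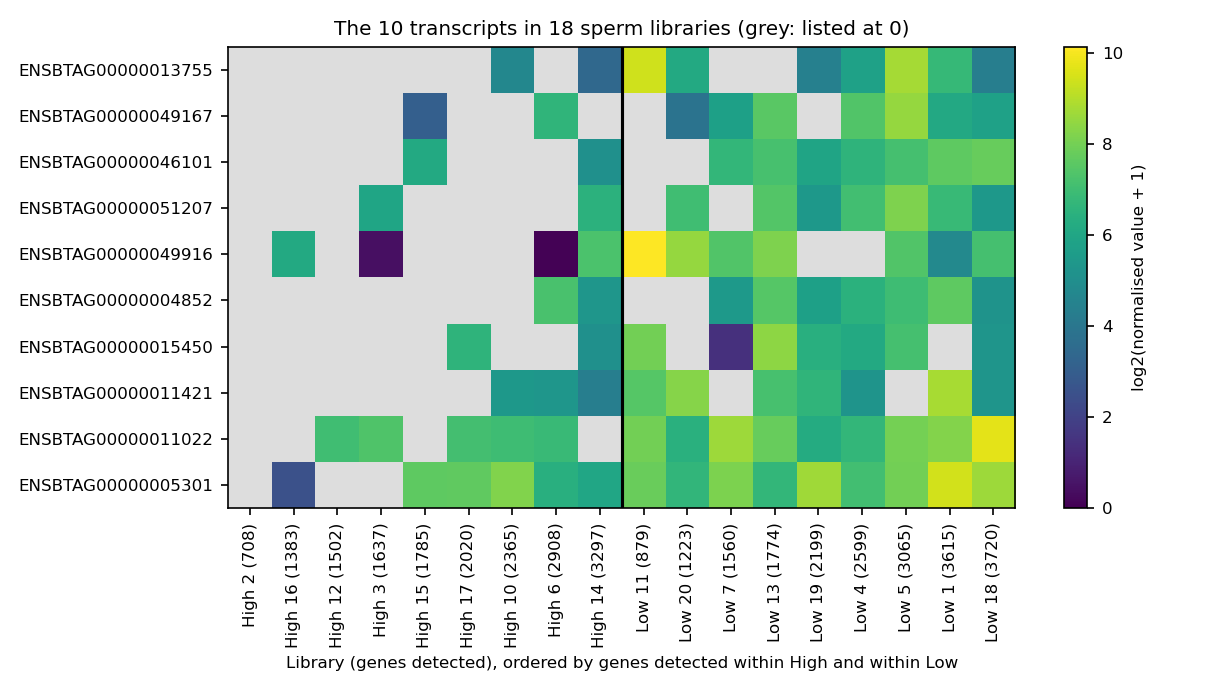
Colour gives log2(value + 1) of each transcript (rows) in each library (columns, with the number of genes detected in brackets), ordered by genes detected within High (left of the line) and within Low (right). Grey cells were listed at 0; they fill all of High replicate 2 and none of Low replicate 18.

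Where a transcript was present, it was mostly well covered by reads. Of 180 combinations of transcript and library, 104 were above 0, and 5 of those rested on fewer than 100 reads. The median over the detected combinations was 70.5 (1188 reads) for the 30 in High and 141 (2433 reads) for the 74 in Low. A count of 0 allows up to 3 reads, which is a value of 0.0846 to 0.346 across these libraries. That limit covers counting error only, since PCR copies are not independent molecules, and it says nothing about RNA lost before amplification. Together the 10 transcripts made up 0.0257% ± 0.0164 of a High library's summed values and 0.170% ± 0.123 of a Low library's (SD, n = 9 each). The Low median was 0.156%, and Low replicate 11 was highest at 0.479%. These shares hold the difference in detection that the transcripts were chosen on, so nothing is read from their contrast.

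Whether the transcripts occurred together was first read from the number of them in each library. High libraries held 3.33 ± 2.45 of the 10 and Low libraries 8.22 ± 1.30 (SD, n = 9 each). In order of genes detected, High replicate 2 held 0, replicate 16 held 2, replicate 12 held 1, replicates 3, 15 and 17 held 3 each, replicate 10 held 4, replicate 6 held 6 and replicate 14 held 8. The Low libraries in the same order were replicate 11 with 6, replicates 20 and 7 with 7 each, replicate 13 with 9, replicate 19 with 8, replicates 4, 5 and 1 with 9 each and replicate 18 with all 10. Within each class, libraries with more genes thus held more of the 10 transcripts, with one step down in each order.

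Across bulls of one class the count followed the number of genes detected closely, and across both classes less so. Pearson's r was 0.971 and Spearman's rho 0.966 in High (n = 9), 0.876 and 0.909 in Low (n = 9), and 0.656 and 0.679 over all 18 libraries. Without the 2 libraries farthest from the median number of genes, r was 0.922 in High, 0.853 in Low and 0.550 over all. The count went with the read total too, with r of 0.793 in High, 0.745 in Low and 0.453 over all. Spearman's rho with the read total was 0.593, 0.796 and 0.702 in that order. These correlations are descriptions with no p, because the count runs over chosen transcripts, and any gene adds to the number of genes detected in the libraries that show it. Pearson's r of gene number with the share of all 1458 tested genes was 0.965 in High and 0.949 in Low. Those genes are themselves counted in the number of genes detected, so that closeness was largely built in. It is no yardstick for a count of 10 transcripts. Per 1000 more genes detected, a High library held 2.98 more of the 10 and a Low library 1.11 more; the difference between these was not tested, and Low libraries started from 6 of 10.

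**Figure D2:**
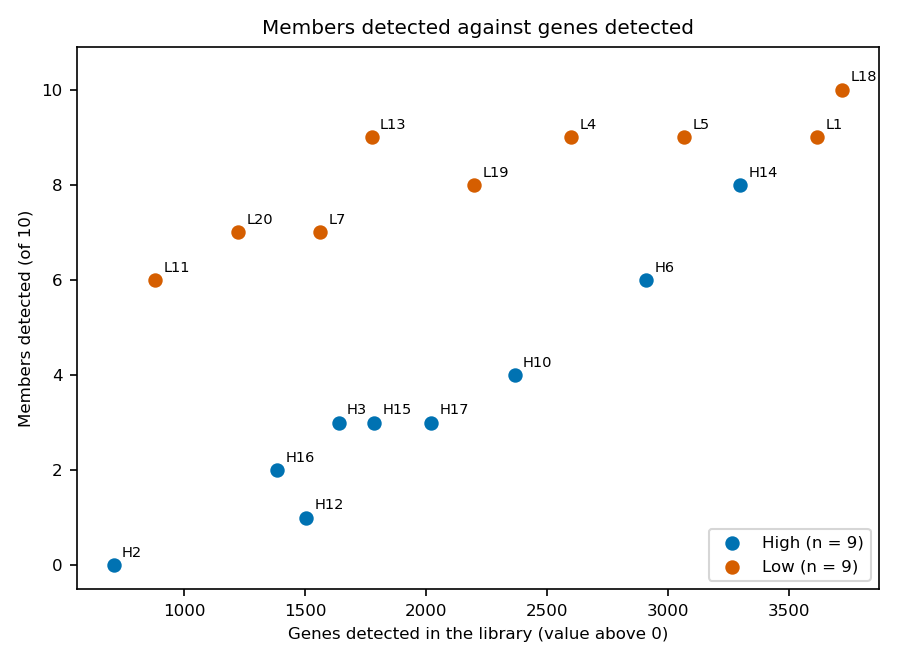
Each point is a library, with the number of genes above 0 on the horizontal axis and the number of the 10 transcripts above 0 on the vertical axis (H, High; L, Low, with the replicate number). Both classes climb with genes detected, and the Low points run from 6 to 10 while the High points run from 0 to 8.

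The share of the 10 detected was set beside the share of all tested genes in the same library. In every High library (9 of 9) the share of the 10 transcripts detected minus the share of all tested genes detected was negative, at -55.0 to -14.2 percentage points, with a mean of -38.4 ± 11.6 (SD, n = 9). In Low it was above that share in 7 of 9 libraries and below it in 2, with a mean gap of 5.98 ± 8.90 points (SD, n = 9). The tested genes as a whole were detected at 71.8% ± 17.7 in a High library and 76.2% ± 18.9 in a Low library (SD, n = 9 each). Low replicate 11 shows the gap at low gene number: 40.7% of the tested genes were detected there and 60.0% of the 10 transcripts. High replicate 6 shows it at high gene number, with 90.3% of tested genes and 60.0% of the 10. Since the transcripts were chosen for being seen more in Low, both the sign of the gap and much of its size were built in, and nothing is read from it about gene number.

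**Figure D3:**
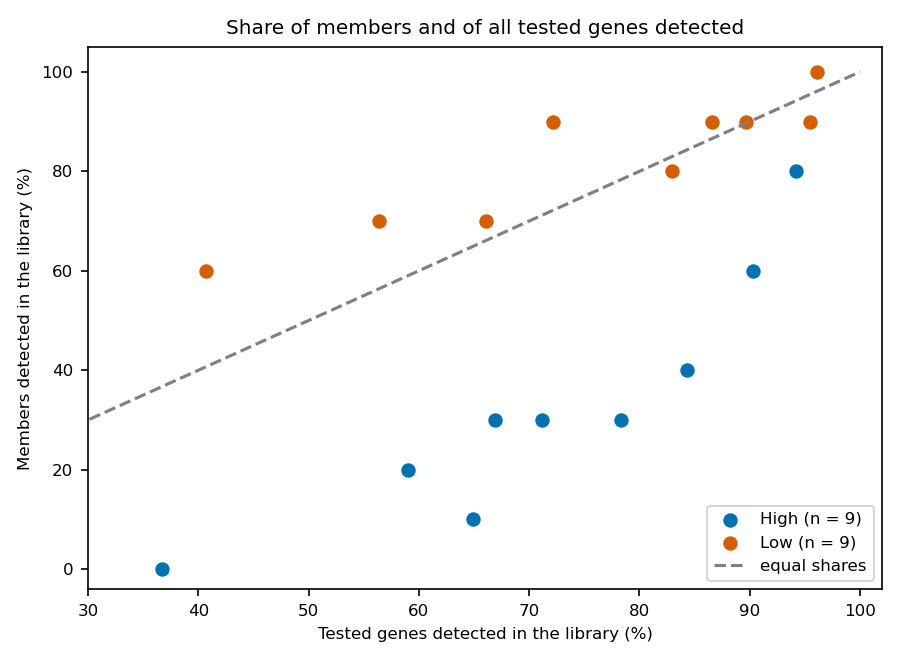
The share of the 1458 tested genes above 0 in a library (horizontal, %) is set against the share of the 10 transcripts (vertical, %), with a dashed line at equal shares. All 9 High libraries lie below the line, and 7 of 9 Low libraries lie above it.

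The relation of each transcript to gene number was tested within the classes, in a limma fit over all 1458 genes with fertility class as a term and log2 of the number of genes detected as covariate. Rising levels with gene number were common: 343 of the 1458 genes (23.5%) rose at an adjusted p under 0.05 and 0 fell. A rise was favoured in advance, because gene number counts the values above 0 in these same libraries. The direction is therefore not read as a result. Of the 10 transcripts, 2 rose, a share near that background. ENSBTAG00000004852 rose by 3.02 log2 units per doubling of genes detected (SE 0.870, limma adjusted p = 0.0177, n = 18), and ENSBTAG00000046101 by 2.56 (SE 0.935, limma adjusted p = 0.0455, n = 18). These are the 2 that shared the same Low libraries and were both missing from the 2 Low libraries poorest in genes. Both had a value no lower than 1 in exactly 9 libraries, 7 Low and 2 High. They were thus tested only through the class they were chosen for, which limits what their adjusted p can show. Both calls also depended on the libraries. Without Low replicate 11, the adjusted p in limma was 0.0621 for ENSBTAG00000004852 and 0.172 for ENSBTAG00000046101. Of the 18 fits that left out 1 library each, ENSBTAG00000004852 kept its call in 17. ENSBTAG00000046101 kept its call in 5 of them, those without High replicates 6 or 15 or Low replicates 7, 13 or 19.

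The other 8 did not pass the threshold, with adjusted p from 0.0866 to 0.651 in limma. Of these, ENSBTAG00000013755, ENSBTAG00000049167, ENSBTAG00000051207, ENSBTAG00000049916 and ENSBTAG00000015450 also had a value no lower than 1 in exactly 9 libraries. They too were tested only through the class they were chosen for, which limits what their slopes and adjusted p can show. ENSBTAG00000005301, ENSBTAG00000051207 and ENSBTAG00000049167 had slopes of 2.12 (SE 0.959), 2.02 (SE 0.987) and 1.93 (SE 0.899) log2 units per doubling, close to the median of 1.94 over all tested genes. The slopes of ENSBTAG00000011022, ENSBTAG00000011421, ENSBTAG00000013755 and ENSBTAG00000015450 lay between 0.57 and 1.06. ENSBTAG00000049916 had the one negative slope, -0.76 (SE 1.18, 95% interval -3.16 to 1.64), which was 0.0086 without Low replicate 11. Over the 10, the median slope was 1.49 and 9 were above 0, against 95.5% of all tested genes above 0. The intervals are wide, and a slope that missed the threshold does not show that a transcript was independent of gene number.

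The difference between the classes, which is what the transcripts were chosen on, is given as measured and at equal gene number. On the log2(value + 1) scale, which understates changes of low values, the High mean less the Low mean was -4.39 to -3.46 over the 10, with a median of -3.85, where the median of all 1458 tested genes was -0.25. With the covariate it was -4.55 to -2.98, its median was -3.56, and the median of all tested genes was 0.07. The median at equal gene number was 92.4% of the median as measured, and for single transcripts the share was 82.9% (ENSBTAG00000004852) to 104% (ENSBTAG00000049916). The classes themselves held 1956 ± 798 and 2293 ± 1027 genes (SD, n = 9 each), so the covariate could move the estimates only a little, and these shares do not tell how far the difference follows gene number. Of all tested genes, 19 had a difference at or below the least negative of the 10, and these 19 include the 10.

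**Figure D4:**
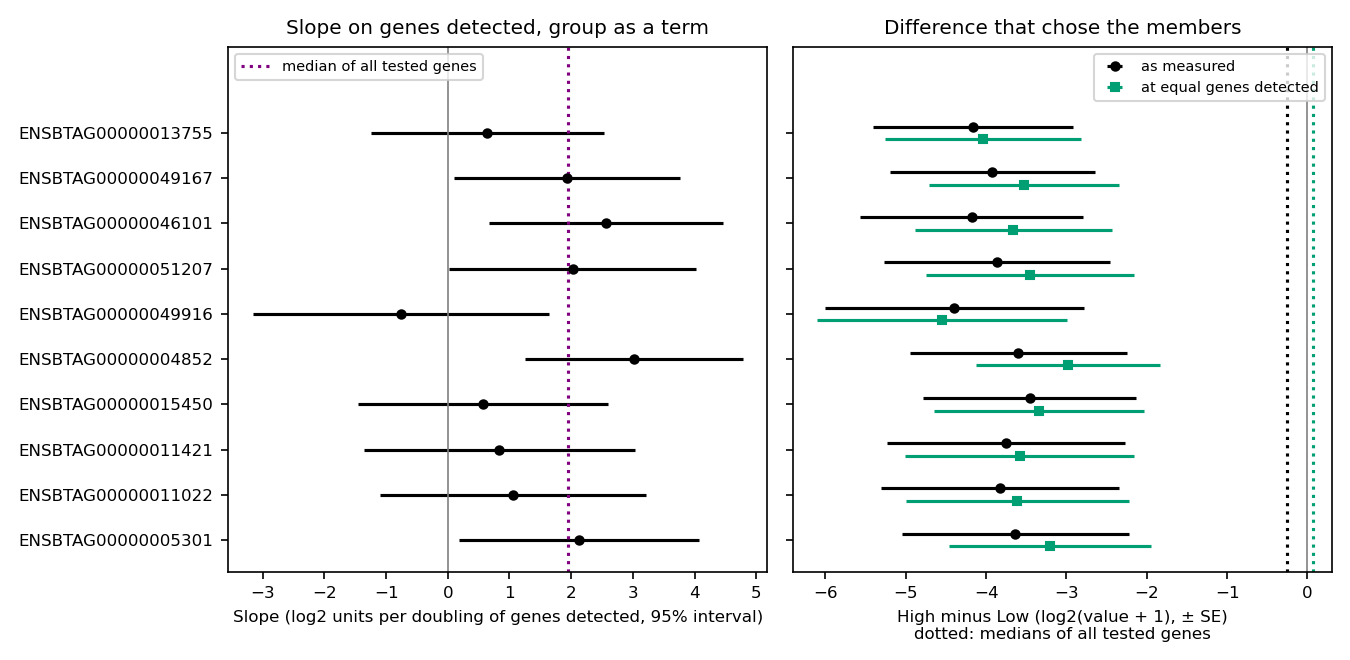
Left, slope of each transcript on genes detected (log2 units per doubling, bars are 95% intervals, n = 18), with the median of the 1458 tested genes dotted at 1.94. Right, the High mean less the Low mean of log2(value + 1) (bars are SE) as measured and at equal genes detected; the medians of the 10 are -3.85 and -3.56, and the dotted lines are the medians of all tested genes.

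Pairs of the transcripts were then compared for the libraries they shared. Over the 45 pairs, both were detected in 5 to 12 of the 18 libraries, with a median of 7. The number detected together in Low was 5 to 9, with a median of 6, and in High 0 to 3, with a median of 1. In High, 4 pairs never met, and 26 met in a single library. Replicate 14 was that library for 17 of the 26. The closest pair was ENSBTAG00000046101 with ENSBTAG00000004852, with a phi coefficient of detection (a correlation of presence and absence) of 0.778. The least alike was ENSBTAG00000046101 with ENSBTAG00000011022, at 0. That pair met in 7 Low libraries and in 0 of 9 High libraries.

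Within classes, the likeness of the pairs depended on how detection was defined, and in High also on 1 library. The median phi was 0.333 over all 18 libraries, against 0.243 for pairs of all tested genes, but the pooled value holds the difference the transcripts were chosen on. Within High it was 0.316 for the 45 pairs and 0.316 for all tested genes, and without High replicate 14 the median of the 45 was -0.067. In High, 6 of the 10 were in exactly 2 libraries, a number their choice favoured, so nothing is read from the equal medians. Within Low, phi exists for 28 pairs, since 2 transcripts were in every library, and its median was -0.29. The 8 transcripts concerned each missed 2 of the 9 Low libraries, a number their choice favoured, so phi could take only the values -0.29, 0.357 and 1, and it is not compared with that of other genes. In 16 of the 28 pairs no missing library was shared, in 11 pairs 1 was shared, and in 1 pair both were. Leaving out 1 library at a time gave a Low median of -0.333 to -0.218. The Low median was 0.048 with the identical columns kept and 0.189 with detection at a value of 10 or more. With values in the place of presence, the median correlation between pairs was 0.10 once class means were removed (all tested genes 0.18), and -0.01 once gene number was removed too (all tested genes 0.0044). These coefficients are given without p, because the pairs share libraries.

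**Figure D5:**
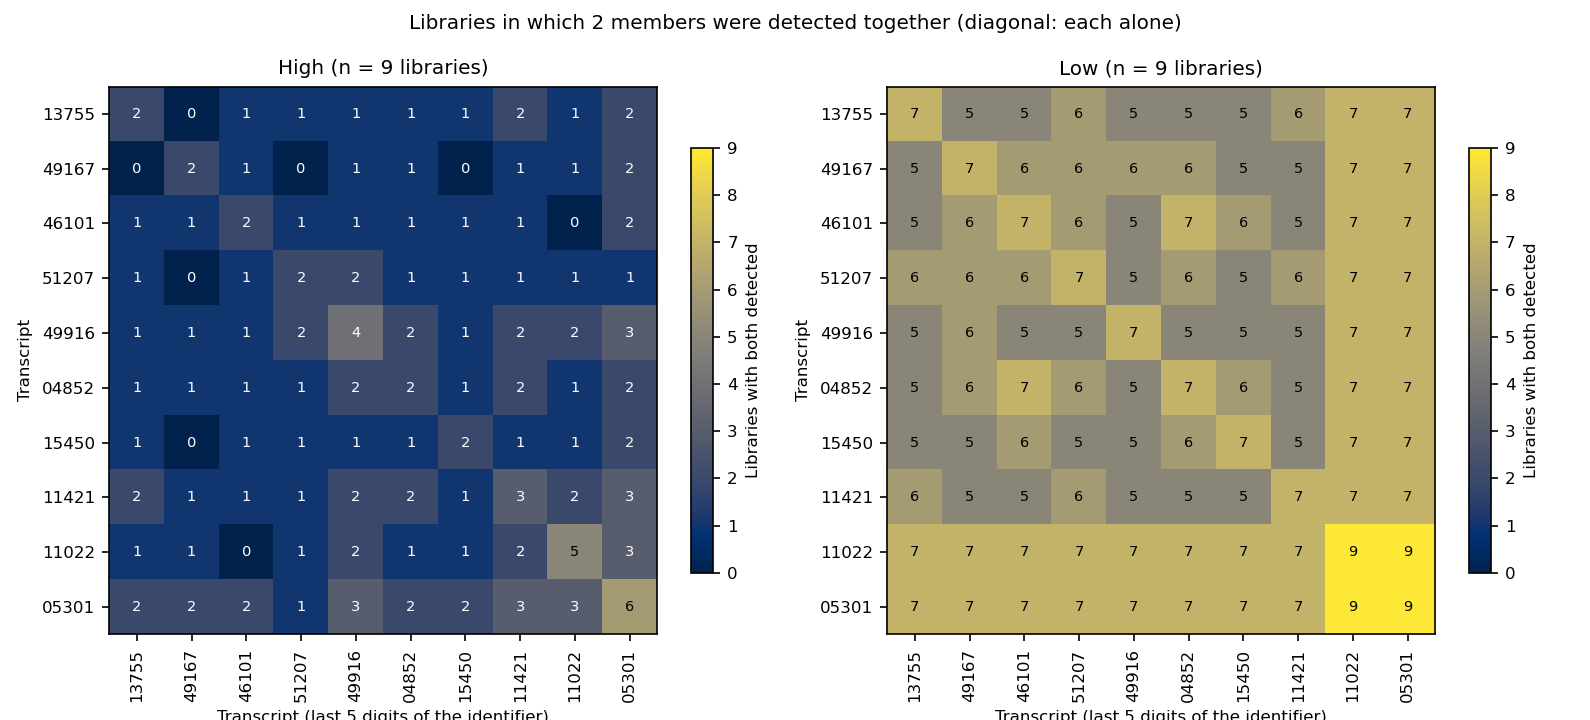
Each cell counts the libraries in which both transcripts were above 0, for High (left) and Low (right), 9 libraries each, and the diagonal counts each transcript alone. Transcripts are marked by the last digits of their identifiers; pairs met in 0 to 3 High libraries and in 5 to 9 Low libraries.

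Among the 1448 other tested genes, those whose log2 value followed the mean of the 10 most closely were ENSBTAG00000002018 (Spearman's rho 0.746 over 18 libraries), ENSBTAG00000045892 (0.735) and ENSBTAG00000001609 (0.733), where the median over those genes was 0.169. ENSBTAG00000002018 was detected in 7 Low and 5 High libraries, with medians of 251 and 3.96. ENSBTAG00000045892 was in 6 Low and 4 High libraries, with medians of 106 and 0. ENSBTAG00000001609 was in 8 Low and 5 High libraries, with medians of 190 and 41.1. The likeness includes the difference between classes, so it is a description of the same contrast.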

How the data were processed

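The deposited table gives a normalised signal per gene for 20 libraries of bull spermatozoa. Per the submitters' processing notes, build UMD3.1 was used with STAR 2.6.1, cutadapt 2.6, FastQC 0.11.8, edgeR 3.5 and R 3.4, whose roles are not stated. Neither the counting tool and strand setting nor the annotation release is given in the sources used here. Values of the deposited signal divide into whole reads (100% of values within 0.1 read) by 1 factor per library, which gave reads per gene, and 7 of the libraries used had the 100 low values needed to check that step. The identifiers matched 0 of the 37063 entries of the reference table, so marker lists and sequences were not used.

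The members and lists were chosen with earlier results of these data known, and identical columns were left out on that ground. Because the values are normalised, limma 3.58.1 (R 4.3.3, mean-variance trend, Benjamini-Hochberg adjustment over 1458 genes) was run on log2(value + 1); differences are High minus Low. Leaving out a library kept those 1458 genes. edgeR 4.0.16 was run on reads from 4 High and 3 Low libraries. The fits were tested on simulated data. For limma the simulated log2 values were normal, with no excess of zeros, and gene number was not counted from them. That run therefore does not show how the fit behaves on values with many zeros. All 10 identifiers were named by rule, with the 3 genes nearest to their mean by Spearman correlation. Bulls are the replicates. Other steps used Python 3.11.15.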

Additional observations from a re-analysis of the deposited data

Results flagged for a closer look

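In 28 groups of 9 libraries (10 transcripts and 4 library measures in each class), the highest and lowest library were compared with the rest. With normal values about 1 in 20 such groups would have a library set apart by chance, a rate that does not hold for values that are mostly 0, and 9 were set apart. In High these were single libraries far above the others: ENSBTAG00000013755 at 25.1 in replicate 10, ENSBTAG00000049167 at 99.0 in replicate 6, ENSBTAG00000046101 at 70.2 in replicate 15, ENSBTAG00000049916 at 153 in replicate 14, ENSBTAG00000004852 at 147 in replicate 6 and ENSBTAG00000015450 at 93.9 in replicate 17. Each of these 6 was at 0 or under 1 in 7 of the other 8 High libraries. In Low they were ENSBTAG00000049167 at 371 in replicate 5, ENSBTAG00000049916 at 1118 in replicate 11 and ENSBTAG00000011022 at 847 in replicate 18.

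The single profile deposited for High replicate 9 and again for Low replicate 8 held 5 of the 10 transcripts and 1247 detected genes, with 53.6% of the tested genes. It showed ENSBTAG00000004852 at 171, ENSBTAG00000049916 at 158, ENSBTAG00000011421 at 100.5, ENSBTAG00000011022 at 71.2 and ENSBTAG00000005301 at 64.9, and the other 5 were at 0.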

How the results depend on the processing

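No paired analysis was possible because the replicate numbers of High and Low do not overlap. The read total as covariate and both fits on 7 libraries were chosen after seeing the data. The count of the 10 transcripts that rose with gene number, 2 in the limma fit reported, was 1 with a pseudocount of 10, with genes at 10 or more as covariate, with gene number on a linear scale, with columns rescaled to 1000000 and with robust empirical Bayes. It was 0 in limma with no filter, with a minimum of 5 libraries and with the read total as covariate, where 4, 3 and 3 had an unadjusted p under 0.05. It was also 0 in limma and in edgeR on 7 libraries, with 0 unadjusted in each. It ran from 0 to 2 when single libraries were left out. Unadjusted, 5 of the 10 had a p under 0.05 in the limma fit reported. Over 30 alternatives the adjusted p of ENSBTAG00000004852 ran from 0.0120 to 0.999 (under 0.05 in 23) and that of ENSBTAG00000046101 from 0.0216 to 0.999 (under 0.05 in 7). With the read total as covariate 0 of the 1458 genes passed in limma (220 at an unadjusted p under 0.05), and edgeR on 7 libraries gave 0 (62 unadjusted). With columns rescaled to 1000000, 202 of the 1458 genes rose at an adjusted p under 0.05 in limma, against 343 in the fit reported.

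Slopes that changed sign, none of them past the threshold, were 0.69 for ENSBTAG00000049916 and -0.17 for ENSBTAG00000011022 with the read total. In limma on 7 libraries they were -1.24 for ENSBTAG00000049167, -2.03 for ENSBTAG00000046101, 5.32 for ENSBTAG00000049916 and -1.58 for ENSBTAG00000005301. In edgeR they were -1.43 for ENSBTAG00000013755, -1.62 for ENSBTAG00000046101, 16.1 for ENSBTAG00000049916 and -1.85 for ENSBTAG00000005301. Leaving out 1 library each gave ENSBTAG00000049916 slopes from -1.70 (without High replicate 14) to 0.0086 (without Low replicate 11). The causes were not tested.

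The median difference of the 10 was -5.57 with a pseudocount of 0.1 and -2.31 with 10, and at equal gene number -5.05 and -2.10. Leaving out libraries gave -4.12 to -3.62, and -3.91 to -3.27 at equal gene number. Of 290 single values at equal gene number, 289 were below 0; the exception was ENSBTAG00000011421 in limma on 7 libraries (2.21). With the identical columns kept, r between the count of the 10 and genes detected in High was 0.844, and the median phi in Low was 0.048. With detection at a value of 10 or more, the median phi was 0.189 in High and 0.189 in Low. Leaving out a library gave a median phi of -0.067 to 0.333 in High and of -0.333 to -0.218 in Low.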
